A study of Homo sapiens with 3 samples.

Results

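Transcript levels of 9 genes of the p53 and RB axis were described in HEK293T cells: MDM2, MDM4, CDKN1A, RB1, RBL1, RBL2, CDKN2A, E2F1 and CCNE1. They were chosen by name as genes whose proteins the SV40 large T antigen binds or that act directly around those proteins. No rule on their values was used, but earlier results of these data were known when they were chosen. They make up 9 of 61193 genes to which the deposited transcripts could be joined. The study mapped DNA structures in 2 cell lines, and its RNA-seq data analysed here consist of 3 replicates of untreated HEK293T cells. The cells were grown in DMEM with serum, antibiotics and no further agent and collected 24 h after seeding, and RNA from 3000000 cells went into each sample.

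HEK293T descends from human embryonic kidney cells transformed with the adenovirus E1 region and, in addition, stably expresses the SV40 T antigen, and all 3 libraries share both. It is 1 established line, no parental line without T antigen was analysed, and therefore no level below can be set against a control. The labels give the molecule as genomic DNA, whereas their protocol describes RNA and a 3′ mRNA kit. The study's methods describe the replicates as independent and biological, and the SD below is the spread between them. In bulk RNA, fewer cells that express a gene and less of its RNA per cell cannot be told apart.

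The pocket proteins RB, p107 and p130, encoded by RB1, RBL1 and RBL2, hold E2F transcription factors inactive until cyclin-dependent kinases phosphorylate them, and E2F then drives the genes of S phase, among them its own gene and the cyclin E gene CCNE1. p53 is kept low by the ubiquitin ligase MDM2 and its partner MDM4, and when active it raises CDKN1A, whose product p21 inhibits the kinases, and MDM2 itself. Large T antigen binds p53 and, through a short motif, the pocket proteins, and CDKN2A links both branches, since it encodes the kinase inhibitor p16 and, from a separate first exon, ARF, an inhibitor of MDM2. The gene of p53 itself is not among the genes described here.

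The libraries held 7019253, 6262175 and 8521624 counts, of which mitochondrial genes took 9.59, 5.70 and 25.8%. A count of 3, taken as the limit that a count of 0 allows, equalled 0.427, 0.479 and 0.352 counts per 1000000 (CPM) in replicates 1 to 3. This limit and the Poisson intervals below cover counting error only. Levels are given as transcripts per 1000000 (TPM), which divide each count by the transcript's length, and differences between genes were read on this scale. The libraries were made from 3′ ends, so division by length may distort comparisons between genes. CPM, which is not divided by length, is given beside TPM for some ratios. As a check of the label, 5 of 10 kidney epithelium and nephron progenitor genes reached a mean of 1 TPM. Of 19351 protein-coding genes whose canonical transcript was listed, 38.3% reached it. SIX2 at 83.2 TPM and PAX2 at 8.96 TPM led the list, whereas PAX8 and KRT18 were listed at 0. WT1 at 0.928, EPCAM at 0.573 and CDH1 at 0.285 TPM also stayed below 1 TPM. All 6 blood cell genes were listed at 0, 2 of 7 fibroblast genes reached 1 TPM, led by COL1A1 at 24.8 TPM, and 1 of 4 neural filament genes did, INA at 38.8 TPM. For PAX8, KRT18 and 5 of the 6 blood cell genes, most of the last 300 bases lie in other listed transcripts too. Of all protein-coding genes with such ends 44.2% had no count, so these zeros do not show that the RNA was absent. The fibroblast genes COL1A2 and THY1 were also at 0, although their last 300 bases lie in no other listed transcript on the same strand. The last 300 bases of CDH1 lie in no other one either.

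The 9 genes spanned levels from 83.0 TPM to 0, and 7 of them reached a mean of 1 TPM. Of 19351 protein-coding genes whose canonical transcript was listed, 38.3% reached it. By mean TPM the order was E2F1, RB1, RBL1, MDM2, CDKN1A, CDKN2A, MDM4, RBL2 and CCNE1. By mean CPM it was the same, except that RBL1 stood above RB1, CDKN2A above CDKN1A and RBL2 above MDM4. Of the 36 pairs of these genes, 32 had replicate ranges of TPM that did not overlap. The overlapping pairs were RB1 with RBL1, MDM2 with CDKN1A, CDKN1A with CDKN2A, and MDM4 with RBL2, each of them neighbours in the order. With 1 condition no test between groups exists, and these ranges are a description. The share of pairs without overlap among other genes was not determined, so the count of 32 describes only the order of these genes.

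**Figure D1:**
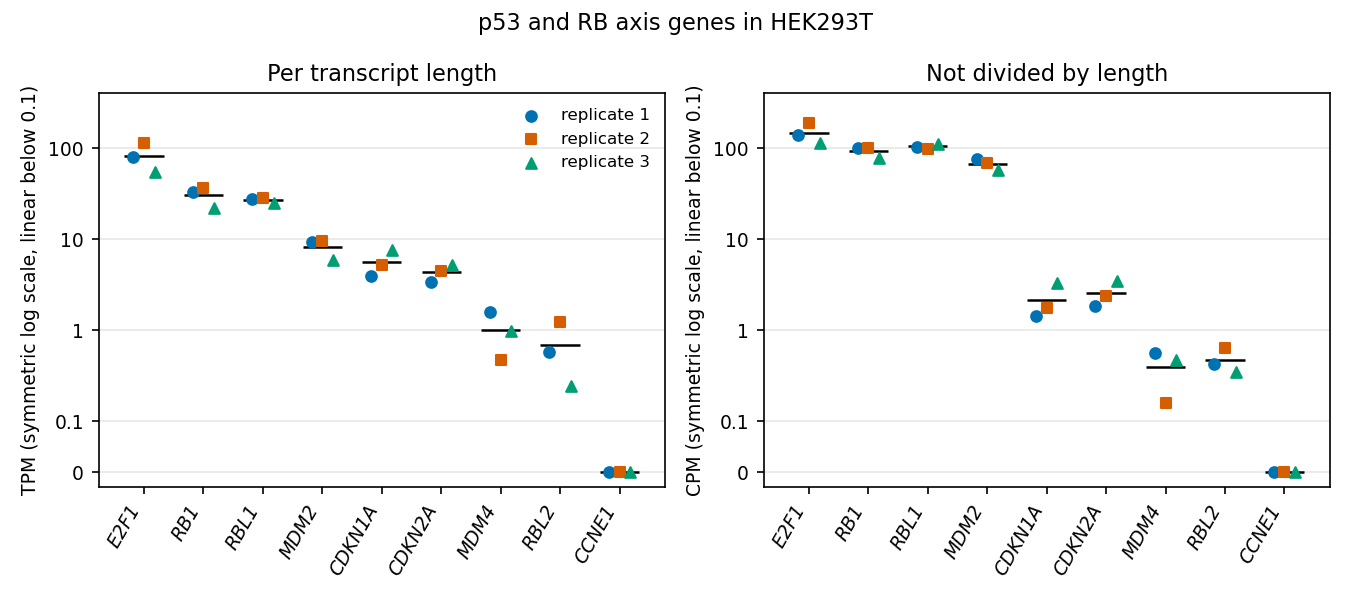
Levels of the 9 genes in each replicate, in TPM on the left and in CPM on the right, both on symmetric log axes that are linear below 0.1; the black line is the mean of the 3 replicates. E2F1, RB1, RBL1 and MDM2 lie above 58 CPM in every replicate, CDKN1A and CDKN2A lie below 4 CPM, and CCNE1 is at 0.

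Sequences near the 3′ ends are shown first, because the libraries were made from 3′ ends and the counts are set against these ends below. Stretches of 30 bases near the end of the canonical transcripts of RB1 and RBL1, which had 621 counts or more in each library, and of CDKN1A and CCNE1, without any count on that transcript, were taken from GENCODE v44 (GRCh38). Those of RB1, CDKN1A and CCNE1 are the last bases of the transcript, and that of RBL1 begins at the signal and stops short of the end. Capitals mark AATAAA, the usual polyadenylation signal, read on the transcript strand.
RB1-201: ttaaAATAAAttagttgttaagagtcttaa
RBL1-202: AATAAAaattggaattgagattattgaaaa
CDKN1A-201: gtgctcAATAAAtgattcttagtgacttta
CCNE1-201: tttAATAAAgataatactgtttttgagaca
All 4 ends carry the signal, and 20, 28, 18 and 21 bases follow its last base up to the end of the transcript in RB1, RBL1, CDKN1A and CCNE1. Within the last 50 bases, AATAAA or ATTAAA was also found in MDM4, RBL2 and CDKN2A, and was not found in the canonical transcripts of MDM2 and E2F1.

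E2F1 encodes the E2F family member that activates S phase genes and was the highest of the 9 genes. Its counts were 976, 1177 and 986, which gave 79.96, 114 and 54.96 TPM and a mean of 83.0 ± 29.7 TPM (SD, n = 3). Replicate 3 was the lowest and replicate 2 the highest, and even the lowest lay above every replicate of the other 8 genes. The gene lies at chr20:33675477-33686385 on the minus strand, and the 1 transcript listed for it held all counts. By TPM it stood at percentile 91.9 of the 12655 protein-coding genes with a count.

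RB1, which encodes the retinoblastoma protein RB, and RBL1, which encodes its relative p107, stood next. RB1 (chr13:48303744-48599436, plus strand) had 702, 635 and 673 counts, or 32.9, 36.5 and 22.4 TPM, with a mean of 30.6 ± 7.33 TPM (SD, n = 3). RBL1 (chr20:36996349-37095997, minus strand) had 723, 621 and 959 counts, or 28.0, 28.5 and 25.3 TPM, with a mean of 27.3 ± 1.71 TPM (SD, n = 3). The ratio of RB1 to RBL1 was 1.17, 1.28 and 0.882, so that RB1 was higher in replicates 1 and 2 and lower in replicate 3, and the 2 genes could not be ordered. The coefficient of variation of TPM was 6.25% for RBL1, 24.0% for RB1 and 35.8% for E2F1. With counts divided by median-of-ratios size factors the order of RBL1 and RB1 turned, with 13.1% for RBL1 and 7.56% for RB1. E2F1 exceeded RB1 by 2.43, 3.13 and 2.46 times and RBL1 by 2.85, 4.001 and 2.17 times in replicates 1 to 3 by TPM. Without division by length, in CPM, the ratios were smaller, at 1.39, 1.85 and 1.47 to RB1 and at 1.35, 1.90 and 1.03 to RBL1.

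RBL2, which encodes p130, the pocket protein known from quiescent cells, was listed far lower than its relatives. It lies at chr16:53433977-53491648 on the plus strand, and its counts were 3, 4 and 3, or 0.575, 1.24 and 0.246 TPM, with a mean of 0.689 ± 0.509 TPM (SD, n = 3). The exact Poisson interval of each count at 95% confidence reached from 0.619 to 8.77 for 3 counts and from 1.09 to 10.2 for 4 counts, so the replicates could not be distinguished. All 10 counts of RBL2 lay outside its canonical transcript. RBL2-204, a retained-intron transcript, held 7 of them, and RBL2-202, which has no defined coding sequence, held 3.

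MDM2, the main negative regulator of p53, had 533, 428 and 498 counts, or 9.30, 9.70 and 5.91 TPM, with a mean of 8.30 ± 2.08 TPM (SD, n = 3). Replicates 1 and 2 were close to each other and replicate 3 was lower. The gene lies at chr12:68808177-68845544 on the plus strand with 36 listed transcripts, of which the canonical MDM2-202 held 1457 of the 1459 counts. Its level depends on the length used. The deposited table gives MDM2-202 a length of 12632 bases and GENCODE v44 gives 7490, and with the latter lengths the mean was 13.8 TPM. MDM2 stood at percentile 66.8 by TPM and 82.9 by CPM.

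MDM4, the partner of MDM2 that restrains the activity of p53, was near the limit of detection. It lies at chr1:204516379-204558120 on the plus strand, and its counts were 4, 1 and 4, or 1.59, 0.477 and 0.987 TPM, with a mean of 1.02 ± 0.556 TPM (SD, n = 3). Without replicate 1 the mean fell below the 1 TPM threshold, to 0.732 TPM, and 6 genes in place of 7 reached it. None of its 9 counts lay on the canonical transcript, and MDM4-202, a protein-coding transcript of 547 bases, held 7 of them.

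CDKN1A encodes p21, the kinase inhibitor that p53 induces. It lies at chr6:36676460-36687337 on the plus strand, and its counts were 10, 11 and 28, or 3.99, 5.19 and 7.59 TPM, with a mean of 5.59 ± 1.84 TPM (SD, n = 3). Replicate 3 was the highest, in contrast to E2F1, RB1, RBL1, RBL2 and MDM2, which by TPM were lowest there. In CPM the 3 replicates were 1.42, 1.76 and 3.29, and the Poisson interval of replicate 3, from 2.18 to 4.75 CPM, overlapped those of replicate 1, which ended at 2.62 CPM, and replicate 2, which ended at 3.14 CPM. MDM2, the other p53 target among the 9 genes, was 2.33, 1.87 and 0.779 times CDKN1A by TPM but 53.3, 38.9 and 17.8 times by CPM. The distance between them depends on the lengths in the deposited table, 553 bases for the counted CDKN1A transcript and 12632 bases for MDM2-202.

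All 49 counts of CDKN1A fell on CDKN1A-206, a transcript of 553 bases with no defined coding sequence. Its exons lie 57 to 225 and 1760 to 2143 bases downstream of the canonical start, and the latter lies wholly within the first intron of the canonical transcript, whose exons lie at 0 to 84, 5383 to 5832 and 7037 to 8618. The canonical CDKN1A-201, which encodes p21, had no count in any replicate. It has no base of its own, since every base of it lies in at least 1 other listed transcript, and 4 of the 8 listed transcripts end with it. These counts are therefore no measure of the coding mRNA of p21.

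CDKN2A encodes p16 and ARF and lies at chr9:21967752-21995301 on the minus strand. Its counts were 13, 15 and 30, or 3.37, 4.48 and 5.27 TPM, with a mean of 4.37 ± 0.954 TPM (SD, n = 3). As for CDKN1A, replicate 3 was the highest. By transcript, CDKN2A-204 held 10, 9 and 23 counts, CDKN2A-209 held 1, 5 and 6, CDKN2A-203 held 2, 1 and 0, and CDKN2A-207 held 1 count in replicate 3 only. Transcripts that start more than 10000 bases upstream of the p16 start held 54 of 58 counts, or 93.1%. The counted ones among them, CDKN2A-204 and CDKN2A-209, do not contain the ARF first exon, and CDKN2A-210 and CDKN2A-214, which do, were listed at 0 in all replicates. CDKN2A-204 has no defined coding sequence and ends 14483 bases before the p16 start. The canonical p16 transcript CDKN2A-201 had no count and no base of its own. CDKN1A and CDKN2A could not be ordered, with ratios of 1.18, 1.16 and 1.44 by TPM and 0.769, 0.733 and 0.933 by CPM.

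**Figure D2:**
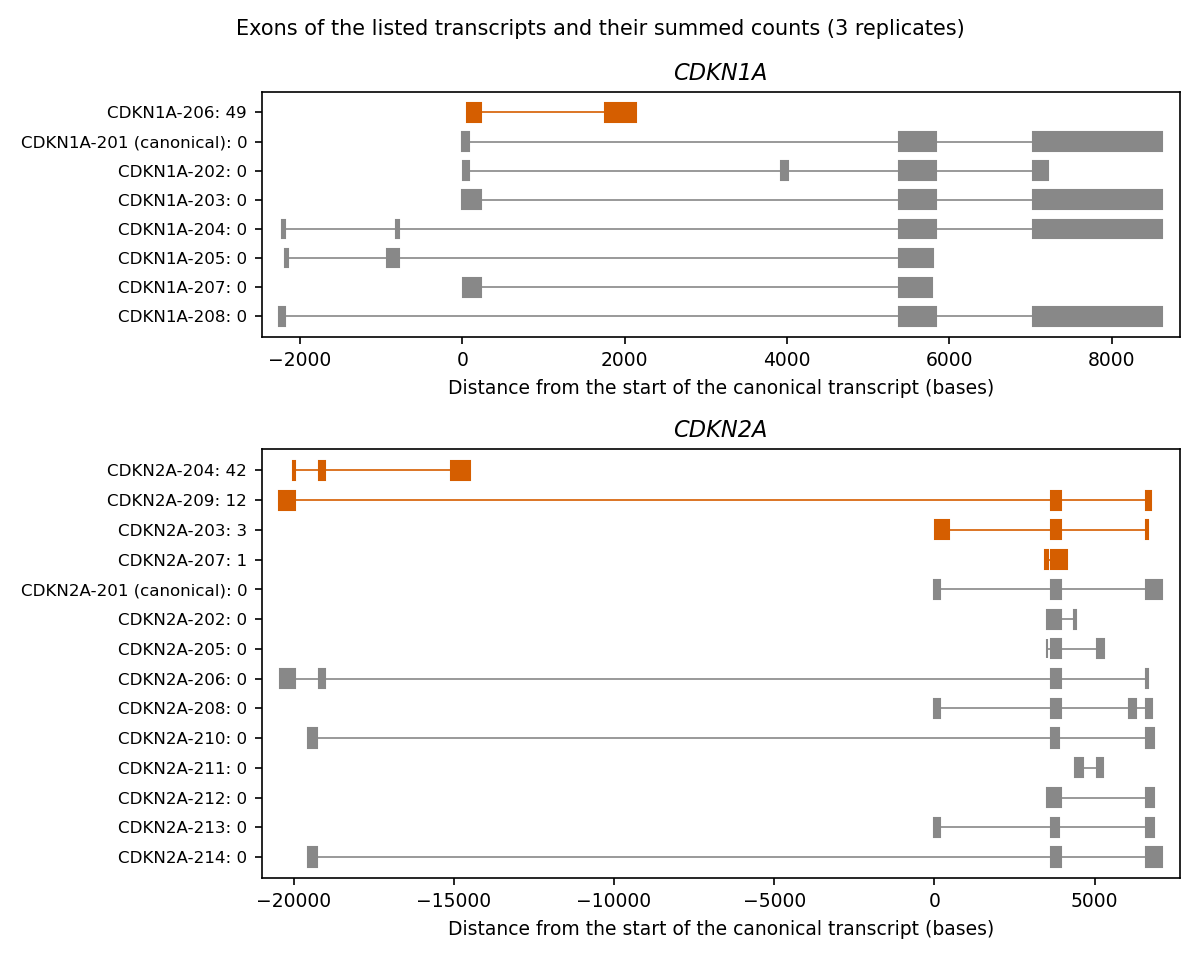
Exons (boxes) of all transcripts listed for CDKN1A and CDKN2A, placed by their distance in bases from the start of the canonical transcript in the direction of transcription, with the counts of the 3 replicates summed behind each name; transcripts with a count are orange and those without are grey. The single counted CDKN1A transcript ends 2143 bases after the canonical start, and the leading CDKN2A transcript lies wholly upstream of the canonical start.

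CCNE1 encodes cyclin E1, which activates CDK2 at the entry into S phase and is an E2F target. It lies at chr19:29811991-29824312 on the plus strand, and all 7 of its transcripts were listed at 0 in the 3 replicates. On the canonical transcript, 3 counts would equal 0.338, 0.400 and 0.230 TPM. Since CDK4 and CCNA2, kinase and cyclin genes that dividing cells use, were also listed at 0, this value does not show that CCNE1 RNA was absent. Its paralog CCNE2, which encodes cyclin E2, had 12, 18 and 12 counts and a mean of 3.89 ± 1.79 TPM (SD, n = 3).

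Counts fell only on transcripts that hold exonic bases found in no other listed transcript on the same strand. For the 9 genes, 103 transcripts were listed and 51 had such bases of their own. All 18 transcripts with a count were among these 51, and the 52 transcripts without bases of their own were at 0. RB1-201 is a narrow case, since it has only 162 such bases out of 4768, all within the last 300 bases of the transcript, and held 1991 of the 2010 counts of RB1. How reads that fall on several transcripts were assigned is not given in the sources used here.

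The canonical transcript's own share of its last 300 exonic bases divided the 9 genes. It was 100% for E2F1, RBL1 and MDM2 and 54% for RB1, and these 4 genes had at least 428 counts in every replicate. It was 1.33% for CCNE1, 0.333% for MDM4 and 0% for CDKN1A, CDKN2A and RBL2, and these 5 genes had at most 30 counts in any replicate. Over all protein-coding genes the levels differed between these classes, but the classes overlapped widely. A mean of 1 TPM was reached by 53.2% of 8251 genes whose 3′ end was mostly their own (at least 50%) and by 27.2% of 11100 genes whose 3′ end was mostly shared. At least 400 counts in every replicate were seen for 23.5% of the former and 2.39% of the latter, and at most 30 counts in every replicate for 50.2% and 82.8%. The part of this property in the low values of RBL2, MDM4, CDKN1A, CDKN2A and CCNE1 was not tested, and a low value at a shared end is no measure of low transcription.

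**Figure D3:**
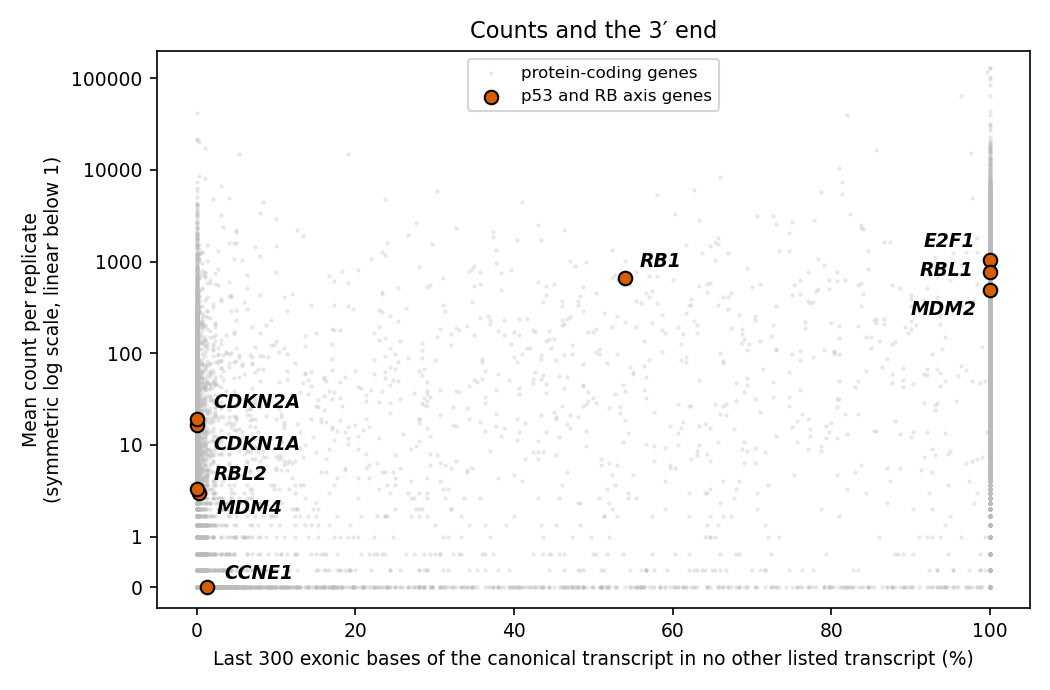
Mean count per replicate (symmetric log axis, linear below 1) against the percentage of the canonical transcript's last 300 exonic bases that no other listed transcript shares, for 19351 protein-coding genes (grey) and the 9 genes (orange, labelled). RB1, RBL1, MDM2 and E2F1 lie at 54 or 100% with at least 428 counts in every replicate, and the other 5 lie at 0 to 1.33% with few or none.

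Sequence at the 3′ end was also compared between genes. For E2F1, RB1, MDM2, CDKN1A, CDKN2A, RBL2 and CCNE1, none of the 270 words of 31 bases in the last 300 bases of the canonical transcript occurred in a transcript of another gene. For RBL1, 14 of 270 words did, and for MDM4 3 of 270 did, so that reads from these stretches could have had more than 1 origin.

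The TPM of E2F1, RB1, RBL1, RBL2 and MDM2 was lowest in replicate 3, the library with 25.8% mitochondrial counts. By CPM RBL1 was instead highest there, at 113 against 103 and 99.2 in replicates 1 and 2. After mitochondrial genes were removed and TPM was scaled again, the mean was 112 TPM for E2F1, 41.9 for RB1 and 38.5 for RBL1. It was 11.4 for MDM2, 8.30 for CDKN1A and 6.37 TPM for CDKN2A, and 7 of the 9 genes again reached 1 TPM. The total used for CPM includes mitochondrial counts. In CPM the coefficient of variation was 13.4% for RB1, 12.98% for MDM2 and 24.99% for E2F1, each lower than in TPM. It was also lower for MDM4 at 53.5% and RBL2 at 31.4%, but higher for CDKN1A at 46.0%, CDKN2A at 32.9% and RBL1 at 6.56%. The part of the mitochondrial share in these differences was not tested.

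Around the pocket proteins, MuvB subunits join p107 or p130 in the DREAM complex, which represses cell cycle genes. In the list of pocket proteins, MuvB (DREAM) subunits and MYBL2, 6 of 9 genes reached 1 TPM, with a median of 6.94 TPM. The highest were LIN52 at 37.6 TPM, RB1 at 30.6 TPM and RBBP4 at 28.9 TPM, and LIN37 and MYBL2 were listed at 0. All 4 genes with a 3′ end mostly of their own reached the threshold, and 1 of 4 with a mostly shared end did. RBL2 was thus 1 of 3 shared-end genes of this list below it.

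In the E2F and DP family, whose members bind DNA as E2F and DP pairs, 5 of 10 genes reached 1 TPM, with a median of 0.934 TPM. TFDP1, the DP partner, was the highest, with 3175, 2931 and 2858 counts and 808 ± 241 TPM (SD, n = 3), above E2F1 in every replicate. E2F2, an activator like E2F1, followed with 826, 737 and 919 counts and 32.8 ± 5.57 TPM (SD, n = 3). Its replicate range lay below that of E2F1. E2F5, which binds p130, had 35, 42 and 50 counts and 1.73 TPM, E2F3 had 5 counts in all, E2F7 had 3, and E2F4, E2F6 and E2F8 were listed at 0. All 3 genes with a 3′ end of their own, E2F1, E2F2 and TFDP1, reached 1 TPM, and 2 of 7 with a shared end did.

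Among G1 and S cyclins and their kinases, 6 of 10 genes reached 1 TPM, with a median of 4.28 TPM. CDK2, the kinase that cyclin E activates, stood at 514 ± 164 TPM (SD, n = 3) with 5547, 5666 and 5031 counts on a 3′ end of its own. Both its E cyclins stood below 4 TPM, but their own share of the 3′ end was 1.33% for CCNE1 and 0% for CCNE2. The levels of kinase and cyclins can therefore not be set against each other. CCND2, a D cyclin that opens RB phosphorylation, had 6760, 6175 and 7402 counts and 220 ± 41.7 TPM (SD, n = 3), CDK6 stood at 61.2 ± 22.9 TPM and CCND1 at 22.2 ± 11.1 TPM. CCND1 was lowest in replicate 3, with 271 counts against 542 and 487. CCNA1, CCNA2, CCNE1 and CDK4 were listed at 0. CCNA2 was at 0 although 100% of the last 300 bases of its canonical transcript were its own, whereas for CDK6 that share was 0%.

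Of the 7 CDK inhibitors, 6 reached 1 TPM, with a median of 21.0 TPM. CDKN1A and CDKN2A were the lowest of these 6. CDKN1B, which encodes p27, was the highest at 130 ± 30.9 TPM (SD, n = 3), followed by CDKN2D at 34.98 and CDKN2B at 27.5 ± 4.25 TPM. CDKN2B, the neighbour of CDKN2A that encodes p15, had 518, 447 and 577 counts on a 3′ end of its own. CDKN1C, which encodes p57, was listed at 0.

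Of 14 regulators of p53, MDM2 and MDM4 among them, 11 reached 1 TPM, with a median of 8.81 TPM. NPM1, a nucleolar protein that binds ARF, was the highest at 2002 TPM, followed by the kinases HIPK2 at 55.6 and CHEK1 at 39.6 TPM. COP1 at 0.0408 and TRIM28 at 0.342 TPM were the lowest. Of 28 p53 target genes, 16 reached 1 TPM, with a median of 5.30 TPM. Among 19351 protein-coding genes, 38.3% reached it and the median was 0.194 TPM. The value of CDKN1A is no measure of its coding mRNA and is not set against these medians. SESN2 at 335 ± 55.4, PERP at 292 ± 37.8 and PMAIP1 at 192 ± 20.4 TPM (SD, n = 3) were the highest, all 3 with a 3′ end of their own, and BBC3 and EDA2R were among the 7 listed at 0. By 3′ end, 12 of 13 targets with an end of their own and 4 of 15 with a shared end reached 1 TPM, MDM2 among the former and CDKN1A among the latter. A level without a control says nothing of whether p53 drives it.

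Of 28 E2F target genes, 14 reached 1 TPM, with a median of 1.04 TPM. CDT1 at 521, MCM6 at 302 and CHAF1A at 200 TPM were the highest, and E2F1 and RBL1, which are targets as well as part of the axis, were among those that passed. By 3′ end, 9 of 11 targets with an end of their own and 5 of 17 with a shared end did. Of 12 other cellular partners of large T antigen 8 reached 1 TPM, with TOP1, which encodes topoisomerase I, the highest at 1036 TPM, and FAM111A, a host restriction factor, and RPA1 the lowest at 0.0119 and 0.0455 TPM. Of 4 subunits of PP2A, the phosphatase that small t antigen binds, PPP2CA at 244 and PPP2R1B at 51.2 TPM passed and PPP2R1A at 0.894 and PPP2CB at 0.604 TPM did not. Over the 9 pathway lists 67 of 112 genes reached 1 TPM, 41 of 45 with an end of their own and 25 of 65 with a shared end. Among all protein-coding genes the corresponding shares were 38.3%, 53.2% and 27.2%. These classes count overlap on the same strand only. With overlap on either strand, the own share fell from 100 to 0% for MCM2 and PPP2R1A, which stayed below 1 TPM. For CCND1, which reached 1 TPM, it fell from 100 to 21.3%.

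**Figure D4:**
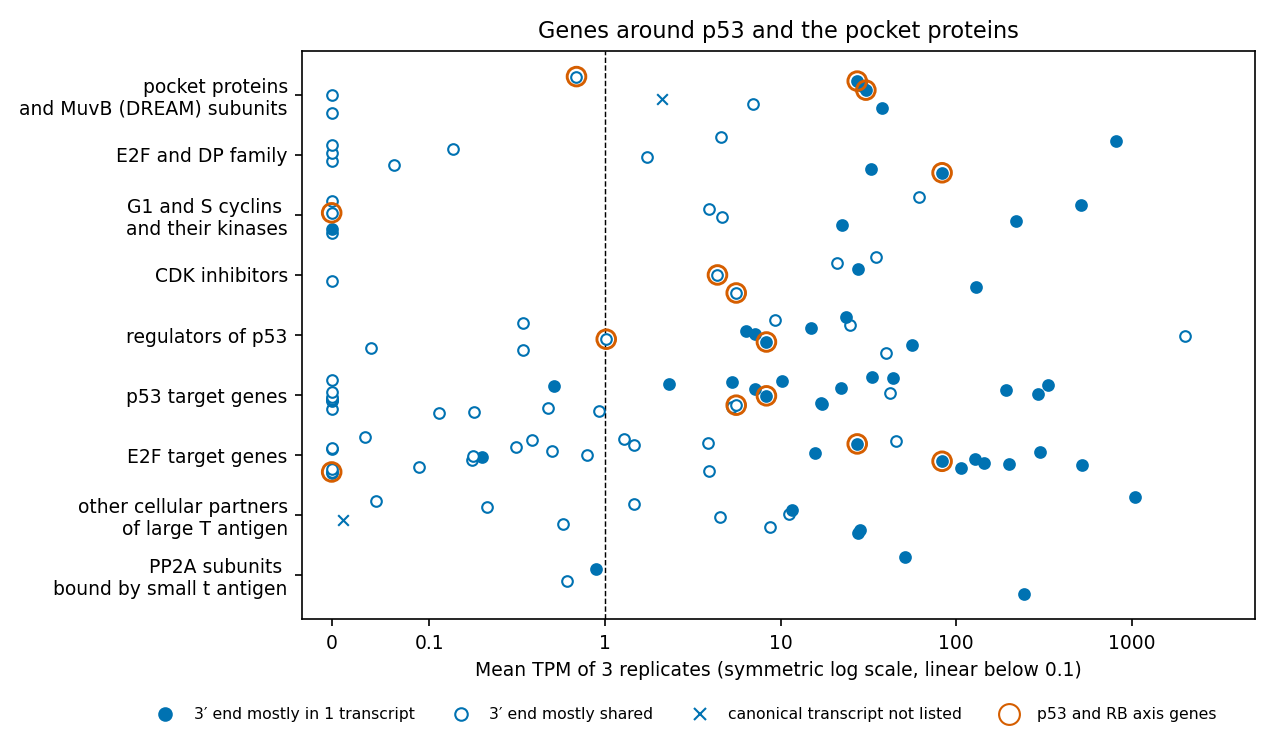
Mean TPM of every gene in the 9 pathway lists (symmetric log axis, linear below 0.1), with filled points for a canonical 3′ end mostly in 1 transcript, open points for a mostly shared end, crosses for genes whose canonical transcript was not listed and orange rings for the 9 genes of the axis. The dashed line marks 1 TPM, and filled points lie to its right for 41 of 45 genes.

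Promoters are shown for 3 genes that E2F is known to drive, E2F1 and RBL1 at 83.0 and 27.3 TPM and CCNE1 listed at 0. They are RefSeq sequences (GRCh38.p14) from 250 bases before to 50 bases after the start. Capitals mark the words TTTCGCGC or TTTGGCGC, searched on both strands as exact E2F words.
RBL1 promoter (chr20:37095948-37096247, minus strand): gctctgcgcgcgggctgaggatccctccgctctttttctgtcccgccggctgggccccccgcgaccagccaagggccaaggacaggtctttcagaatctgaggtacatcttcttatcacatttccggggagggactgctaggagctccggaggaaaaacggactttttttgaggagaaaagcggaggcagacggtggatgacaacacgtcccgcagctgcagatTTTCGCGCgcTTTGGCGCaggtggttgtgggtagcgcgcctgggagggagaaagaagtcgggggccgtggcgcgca
E2F1 promoter (chr20:33686336-33686635, minus strand): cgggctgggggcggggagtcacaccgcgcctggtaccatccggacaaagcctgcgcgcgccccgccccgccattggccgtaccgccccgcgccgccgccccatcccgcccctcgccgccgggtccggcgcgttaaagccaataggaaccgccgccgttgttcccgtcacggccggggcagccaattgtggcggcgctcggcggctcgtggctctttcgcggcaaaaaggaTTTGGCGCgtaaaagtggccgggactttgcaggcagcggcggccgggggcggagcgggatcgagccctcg
CCNE1 promoter (chr19:29811741-29812040, plus strand): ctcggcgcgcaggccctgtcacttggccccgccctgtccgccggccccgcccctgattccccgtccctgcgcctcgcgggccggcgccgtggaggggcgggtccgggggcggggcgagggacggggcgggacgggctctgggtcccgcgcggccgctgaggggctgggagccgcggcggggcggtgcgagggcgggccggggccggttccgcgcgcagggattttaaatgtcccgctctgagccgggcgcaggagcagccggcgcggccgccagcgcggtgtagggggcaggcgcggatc
RBL1 held 2 words, which begin 26 and 16 bases before the start, and E2F1 held 1, which begins 20 bases before it. CCNE1 held none and had a GC content of 81%, which says only that these letters are not in this window. A word was found in 1.52% of 21601 promoters of protein-coding genes, and 2 or more in 0.0509%. In the list of E2F target genes, 14 of 33 promoter entries held a word. Of the other 6 members, MDM2 held a word at its upstream start, and the entry for RB1 covers only an internal start.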

How the data were processed

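RNA-seq was performed by the authors with a 3′ mRNA kit on 2 µg of total RNA, and their processing notes name Trimmomatic 0.38.0, HISAT2 2.2.1, featureCounts and hg38. The annotation release, the strand setting and the rule for reads on several transcripts are not given in the sources used here. For 247541 Ensembl transcripts the authors deposited raw counts, which are integers. Beside them stands the authors' TPM, the count divided by transcript length and scaled to 1000000, and recomputing it from count and length agreed within 1e-06. Transcripts were joined to GENCODE v44 (GRCh38) by identifier without version. Of them 223558 matched, 94.0% of these with the same length, and 23983 were not used. Counts and TPM were summed per gene with Python 3.11.15, pandas 2.3.3 and scipy 1.17.1. CPM is the count per 1000000 of the library total.

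With 1 condition there was no test, and a paired exact permutation of 3 replicates could not give a p below 0.25. Members were called at a mean TPM of at least 1. Besides the 9 members, the text names the 3 highest and 2 lowest genes of each fixed list and paralogs of members. CDK4, WT1, EPCAM, CDH1, MCM2 and the 3′-end classes were chosen after their values were seen. The 9 members and the lists were chosen with earlier results of these data known. In pairs of replicates the counts differed beyond counting noise, with a mean chi-square per gene of 13.3 to 125, and none was treated as a copy of another. The call at 1 TPM was tried on simulated counts, where 96.5% of 26231 genes stayed on the same side of it. The authors' assignment of reads to transcripts was not tested. Alternatives were other thresholds and pseudocounts, CPM, size factors, replicates left out, mitochondrial genes left out, protein-coding transcripts alone and, added after seeing the data, GENCODE lengths and other shares for the 3′ end.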

Additional observations from a re-analysis of the deposited data

How the results depend on the processing

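The 7 genes with a mean of 1 TPM became 4 with protein-coding transcripts alone (MDM2, RB1, RBL1 and E2F1). CDKN1A, with no count on such a transcript, then stood at 0, CDKN2A at 0.961 and MDM4 at 0.836 TPM. The count was 6 to 7 when 1 replicate was left out, 6 with CPM of at least 1 and 8 at 0.5 TPM. The number of pairs without overlap was 32 to 34 when a replicate was left out and 33 in CPM. For the E2F targets the count of 14 became 23 with any TPM above 0, and for the PP2A subunits 2 became 4 both at 0.5 TPM and above 0. Pathway genes reaching 1 TPM at an own end were 90.5 to 91.8% and at a shared end 34.4 to 41.2% with limits of 25 and 75% for an own end, chosen after seeing the data. GENCODE lengths moved MDM2, to 13.8 TPM. No paired analysis was possible because all samples belong to 1 group. For MDM4 and RBL2, with at most 4 counts in a library, differences between replicates were not detectable at this depth.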
